A study of Mus musculus with 18 samples.

Results

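The genes examined here encode the subunits of the 26S proteasome. They were all protein-coding genes of the deposited count table named *Psma*, *Psmb*, *Psmc* or *Psmd* followed by a number, which gave 39 genes of 40800 Ensembl identifiers, and 36 of the 39 had enough counts to be tested. RNA was taken from pooled whole lenses of C57BL/6J mice, with 3 libraries in each of 6 groups. In the *Cryaa* line, lenses were collected at 2 days of age from WT mice (Cryaa-WT) and from mice heterozygous (*Cryaa*-R49C-het) or homozygous (*Cryaa*-R49C-homo) for a knock-in that changes arginine 49 of αA-crystallin to cysteine. In the *Cryab* line, lenses were collected at 14 days of age from WT mice (Cryab-WT) and from mice carrying 1 (*Cryab*-R120G-het) or both (*Cryab*-R120G-homo) copies of a knock-in that changes arginine 120 of αB-crystallin to glycine. The knock-in alleles are in the germ line, so lens epithelium and lens fibre cells alike carry them. Each line has its own age, so line and age cannot be told apart. The labels do not say whether lenses of different libraries came from different litters, and p-values measure only the spread between libraries.

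The 26S proteasome degrades proteins that carry ubiquitin chains. Its 20S core is a barrel of alpha and beta rings in which *Psmb6*, *Psmb7* and *Psmb5* encode the proteolytic subunits β1, β2 and β5, and its 19S cap holds a ring of ATPases (*Psmc* genes) that unfolds the substrate, other base subunits that bind ubiquitin or shuttle proteins, and a lid that removes ubiquitin. In immune cells, and in other cells after interferon, *Psmb9*, *Psmb10* and *Psmb8* replace the proteolytic subunits and form the immunoproteasome, which makes peptides for antigen presentation. Lens fibre cells lose their organelles as they mature, and the ubiquitin pathway is present in lens epithelium and in young fibres.

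The 39 genes comprised 7 alpha ring genes, 7 constitutive beta ring genes, 3 immunoproteasome genes, 6 ATPase genes, 3 non-ATPase base genes (*Psmd1*, *Psmd2* and *Psmd4*), 8 lid genes, 3 genes of assembly chaperones or related factors (*Psmd5*, *Psmd9* and *Psmd10*) and 2 genes known for use in testis (*Psma8*) and thymus (*Psmb11*). *Psmb9*, *Psma8* and *Psmb11* were not tested, with at most 9, 9 and 1 counts in any library. The other 34 genes outside the immunoproteasome had between 98 and 8483 counts in every library and are called constitutive below.

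The promoters of the genes on which the results turn are shown first, to set constitutive catalytic subunits beside immunoproteasome subunits and beside *Psmb3*, a beta ring gene that passed the test in *Cryaa*-R49C-homo lenses. Each window runs from 250 bases before to 50 bases after the RefSeq start of the gene, in the gene's direction, on GRCm38.p6. Capitals mark matches, on either strand, to the core of the antioxidant response element (TGACNNNGC, the motif of the NRF1 and NRF2 factors), to the CCAAT box (CCAAT) or to an interferon-stimulated response element (TTTC, any 2 bases, TTTC).
*Psmb5*, chr14:54617946-54618245, - strand: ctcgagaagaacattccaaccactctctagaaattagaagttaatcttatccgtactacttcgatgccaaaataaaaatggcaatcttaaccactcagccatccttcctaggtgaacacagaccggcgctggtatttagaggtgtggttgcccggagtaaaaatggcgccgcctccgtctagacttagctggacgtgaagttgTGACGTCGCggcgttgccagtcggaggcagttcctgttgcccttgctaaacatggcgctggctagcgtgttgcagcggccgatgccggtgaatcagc
*Psmb6*, chr11:70525107-70525406, + strand: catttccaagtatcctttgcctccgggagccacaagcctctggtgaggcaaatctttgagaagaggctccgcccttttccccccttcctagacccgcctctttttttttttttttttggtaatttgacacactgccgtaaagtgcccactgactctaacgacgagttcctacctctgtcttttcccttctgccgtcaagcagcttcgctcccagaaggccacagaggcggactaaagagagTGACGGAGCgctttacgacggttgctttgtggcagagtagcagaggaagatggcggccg
*Psmb8*, chr17:34197945-34198244, + strand: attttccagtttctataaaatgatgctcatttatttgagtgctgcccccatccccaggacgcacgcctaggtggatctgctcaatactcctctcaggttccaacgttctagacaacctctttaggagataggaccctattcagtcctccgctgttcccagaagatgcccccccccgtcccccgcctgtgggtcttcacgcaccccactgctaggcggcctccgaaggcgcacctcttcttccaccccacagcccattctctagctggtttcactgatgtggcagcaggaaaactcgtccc
*Psmb9*, chr17:34187281-34187580, - strand: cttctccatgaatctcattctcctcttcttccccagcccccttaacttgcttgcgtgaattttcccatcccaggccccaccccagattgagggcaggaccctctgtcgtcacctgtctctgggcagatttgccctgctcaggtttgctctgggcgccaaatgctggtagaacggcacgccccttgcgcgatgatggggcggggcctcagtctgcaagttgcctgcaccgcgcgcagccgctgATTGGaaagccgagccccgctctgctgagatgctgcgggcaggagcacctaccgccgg
*Psmb3*, chr11:97703184-97703483, + strand: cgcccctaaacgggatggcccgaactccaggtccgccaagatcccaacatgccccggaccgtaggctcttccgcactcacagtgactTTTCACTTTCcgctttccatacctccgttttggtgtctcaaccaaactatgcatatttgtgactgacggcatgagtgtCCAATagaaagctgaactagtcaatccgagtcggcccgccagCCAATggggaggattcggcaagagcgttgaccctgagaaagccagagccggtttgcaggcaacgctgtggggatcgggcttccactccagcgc
In *Psmb5* the antioxidant core starts at position -47 and in *Psmb6* at -9 relative to the start. The core was present in 5 of 34 windows of 32 matched genes (14.7%; *Psmb5*, *Psmb6*, *Psmc6*, *Psmd12* and *Psmd9*) against 12.4% of 32851 windows of all genes. The CCAAT box was in 38.2% of the proteasome windows against 37.4% of all, and the interferon element in 8.82% (*Psmb3*, *Psmd4* and *Psmd9*) against 3.44%. Neither the *Psmb8* nor the *Psmb9* window held the interferon motif in these letters. A match is a string of letters and not a measured binding site.

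Library totals lay between 14272174 and 29639719 counts. A single gene model that overlaps ribosomal RNA sequence, Gm42418, took 2.53% to 42.6% of the counts of a library, and crystallin genes took 23.8% to 76.1%. The 3 *Cryaa*-R49C-homo libraries stood apart from each other in both: Gm42418 took 2.53%, 24.5% and 42.6% of replicates 1, 2 and 3, and crystallins 61.2%, 37.7% and 23.8%. The libraries carry lens fibre RNA, with lens fibre markers summing to at least 50997 CPM in each. CPM is the usual count of a gene scaled to a common library size, here after TMM scaling. The listed fibre marker *Lim2* went the other way, with no counts in any library. Because libraries are bulk lens RNA, fewer cells of a type and less RNA per cell cannot be told apart.

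Constitutive proteasome genes were expressed in every library, and the level differed widely between subunits of the same complex. Per kilobase of the gene length that the authors used, *Psmc5*, an ATPase of the base, had the highest level in Cryaa-WT lenses, with 91.3 ± 14.3 CPM per kb (SD, n = 3), and it was followed by *Psmb6* with 74.5 ± 10.9 and *Psmb1* with 69.4 ± 9.1 CPM per kb. These 3 did not separate beyond their spread. The lowest constitutive levels in Cryaa-WT lenses were those of *Psmd9* with 2.17 ± 0.17, *Psmd3* with 2.86 ± 0.19 and *Psmd5* with 2.99 ± 0.43 CPM per kb. By class, the median in Cryaa-WT was 43.7 CPM per kb for the ATPases, 43.6 for the beta ring, 19.8 for the alpha ring, 13.8 for the lid, 7.31 for the non-ATPase base and 2.99 for the chaperone-like genes. The order was the same at the top in Cryab-WT lenses, with *Psmc5* at 177 ± 18 and *Psmb6* at 126 ± 10 CPM per kb. The order rests on the length used: with the longest coding transcript as length, *Psmb6* ranked 1 and *Psmc5* ranked 2 in both WT groups.

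The share of the proteasome genes in a library moved with the composition of that library, in both lines. The share was taken as the summed counts of the 39 genes over the counts of all other nuclear protein-coding genes without crystallins, so neither Gm42418 nor crystallins enter it. In the *Cryaa* line it was 1.26%, 1.19% and 1.23% in the 3 WT libraries, 1.396%, 1.4999% and 1.493% in the het libraries and 1.79%, 0.960% and 0.728% in homo replicates 1, 2 and 3. The het libraries all lay above the WT libraries, and the homo libraries lay on both sides of them. In the *Cryab* line the share was 1.01%, 1.29% and 1.17% in WT, 1.21%, 1.27% and 1.405% in het and 1.37%, 1.53% and 1.08% in homo libraries, and the groups overlapped.

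**Figure D1:**
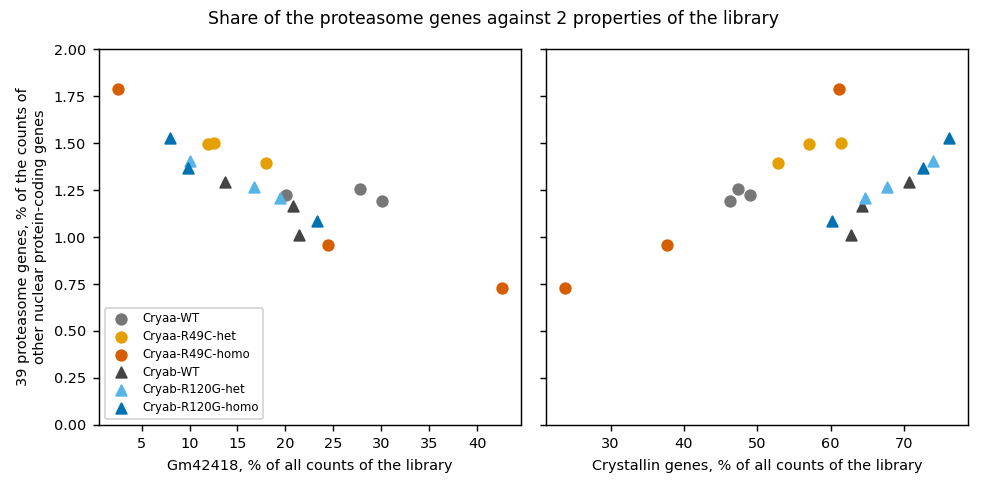
Share of the 39 proteasome genes among the counts of other nuclear protein-coding genes (y axis, %) against the share of Gm42418 (left, % of all counts) and of crystallin genes (right, % of all counts) in each of the 18 libraries, with circles for the *Cryaa* line and triangles for the *Cryab* line. In both lines the share falls with Gm42418, and the lowest point is *Cryaa*-R49C-homo replicate 3 with 0.728%.

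Over the 9 libraries of the *Cryaa* line, the share was correlated with Gm42418 with Pearson's r of -0.931 (exact permutation test, two-sided, p = 0.000648, adjusted over the 4 relations computed 0.000648) and Spearman's rho of -0.9 (exact permutation p = 0.00203, adjusted 0.00203). Without the 2 libraries farthest from the median of Gm42418, homo replicates 3 and 1, r was -0.751. In the *Cryab* line r was -0.948 (exact permutation p = 6.06e-05, adjusted 0.000121), rho was -0.967 (exact permutation p = 0.000165, adjusted 0.00022), and r was -0.925 without homo replicates 2 and 1. On deviations from group means, given as a description, r was -0.936 in the *Cryaa* line and -0.946 in the *Cryab* line. Without the homo groups it was -0.564 and -0.908, so in the *Cryaa* line much of it rested on the homo libraries, and within Cryaa-WT the library with the least Gm42418 did not have the highest share. Libraries with more crystallin RNA had the higher proteasome share, with r of 0.961 in the *Cryaa* line (exact permutation p = 3.03e-05, adjusted 0.000121) and 0.956 in the *Cryab* line (exact permutation p = 9.37e-05, adjusted 0.000125). The matching rho was 0.967 (exact permutation p = 0.000165, adjusted 0.00022) and 0.983 (exact permutation p = 4.96e-05, adjusted 0.000198). Without the 2 libraries farthest from the median of crystallins, homo replicate 3 and het replicate 2 in the *Cryaa* line and homo replicates 2 and 3 in the *Cryab* line, r was 0.975 and 0.938. On deviations from group means, r with crystallins was 0.974 in the *Cryaa* line and 0.969 in the *Cryab* line, and 0.801 and 0.934 without the homo groups. The same pattern appeared gene by gene, given here as a description: the correlation of log2 CPM with Gm42418 was below 0 for all 34 constitutive genes in the *Cryaa* line (median r -0.795), against 47.8% of 13921 genes (median r 0.0383), and for 33 of 34 in the *Cryab* line (median r -0.675), against 54.3% (median r -0.066). The lid gene *Psmd3* was the exception in the *Cryab* line, with r of 0.324. The 2 tested immunoproteasome genes lay near 0, with r of 0.213 for *Psmb8* and -0.106 for *Psmb10* in the *Cryaa* line. The permutation tests above ran over all 9 libraries of a line without regard to genotype group, although the groups differ. Gm42418 and crystallins are shares of the same total, so the 4 relations are not separate evidence. The part that library composition plays in the genotype comparisons below was not tested beyond a fit with the Gm42418 share of each library as a covariate, chosen after seeing the data.

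In *Cryaa*-R49C-homo lenses against Cryaa-WT, 2 of 36 proteasome genes passed the test (edgeR quasi-likelihood, FDR at most 0.05), both higher, where 9.79% of all 13938 genes passed and 4.87% passed as higher. The median log2 fold change of the 36 genes was 0.02, and that of all genes was 0.00. This median stood between libraries that disagreed. For all 34 constitutive genes, homo replicate 1 was the highest of the 3 homo libraries. The median log2 difference of these genes from the WT mean was 0.68 in homo replicate 1, -0.39 in replicate 2 and -0.80 in replicate 3, while the median of all genes was -0.06, -0.02 and -0.01. Homo replicate 1 lay above all WT libraries for 29 of the 34 genes (85.3%, against 34.1% of all genes), and homo replicate 3 lay below all WT libraries for 29 (85.3%, against 36% of all genes). In 20 of the 36 genes homo replicate 1 was above every WT library while replicates 2 and 3 were both below every WT library, as in 8.87% of all genes.

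**Figure D2:**
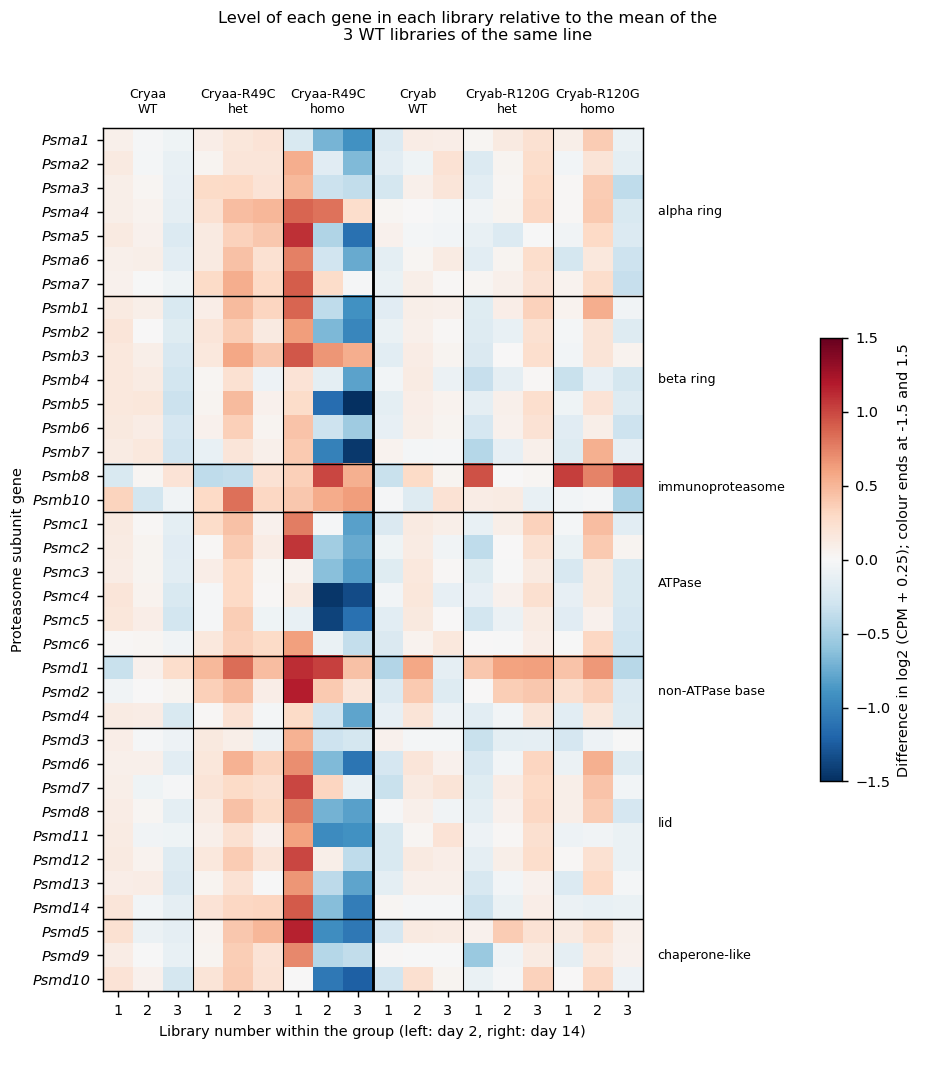
Level of the 36 tested proteasome genes (rows of the heat map, by class) in each of the 18 libraries (columns), as the difference in log2 (CPM + 0.25) from the mean of the 3 WT libraries of the same line, with red for higher and blue for lower. *Cryaa*-R49C-homo replicate 1 is red in most genes and replicates 2 and 3 are blue, with medians over the 34 constitutive genes of 0.68, -0.39 and -0.80.

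The 2 genes that passed were core genes that were higher in every homo library. *Psma4*, the alpha ring subunit α3, had 26.8, 26.2 and 23.0 CPM in Cryaa-WT libraries and 46.4, 44.8 and 30.4 CPM in homo replicates 1, 2 and 3. The groups did not overlap, and the log2 fold change was 0.68 (SE 0.21, edgeR FDR 0.0406). *Psmb3*, the beta ring subunit β3, had 26.3, 25.1 and 19.9 CPM in WT and 45.2, 37.5 and 34.6 CPM in homo libraries. All homo libraries were again higher. The log2 fold change was 0.72, with an SE of 0.20 and an edgeR FDR of 0.0228. Both calls were kept without homo replicate 1 (FDR 0.0416 and 0.0218) and in homo replicate 1 alone (FDR 0.0124 and 0.00889). Neither was kept when any 1 WT library was left out, when only the 2 groups compared entered the fit or when every gene with a count was tested (where *Psmd1* alone passed), and *Psma4* was not kept without homo replicate 2. Of the 50-base windows of their transcripts, 31.5% for *Psma4* and 55.8% for *Psmb3* are also found in transcripts of other genes, and *Psma4* shares exon bases with *AY074887* on the opposite strand, so reads of these genes may be split or dropped in counting.

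The other alpha ring genes included *Psma1*, the α6 subunit, which had 43.9, 41.0 and 39.7 CPM in WT and 35.5, 25.5 and 21.9 CPM in homo libraries. It was the only gene whose homo libraries all lay below the WT libraries, against 12.6% of all genes, but its log2 fold change of -0.59 (SE 0.20) did not pass (FDR 0.0685). Homo libraries all lay above WT libraries in 6 genes (*Psma4*, *Psmb3*, *Psmb8*, *Psmb10*, *Psmd1* and *Psmd2*), against 11.9% of all genes. Of these, *Psmb8* met the count filter only through the homo libraries. *Psmb5*, which encodes the chymotrypsin-like β5 subunit, had 37.1, 37.3 and 26.5 CPM in WT libraries and 40.3, 14.9 and 10.4 CPM in homo libraries. Its levels in homo replicates 2 and 3 were below all WT libraries and that in replicate 1 was above them, and the log2 fold change was -0.62 (SE 0.33, FDR 0.256). *Psmb7*, the trypsin-like β2 subunit, had 26.5, 27.2 and 19.9 CPM in WT and 32.0, 11.9 and 8.75 CPM in homo libraries, with the same split (log2 fold change -0.48, SE 0.33, FDR 0.409). *Psmb6*, the caspase-like β1 subunit, had 153, 149 and 116 CPM in WT and 187, 112 and 95.3 CPM in homo libraries (log2 fold change -0.09, SE 0.23, FDR 0.868).

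In the 19S cap, replicate 1 above and replicates 2 and 3 below every WT library was found in 2 of 6 ATPase genes, 1 of 3 other base genes and 6 of 8 lid genes, against 8.87% of all genes. These classes are small and were not compared with each other. *Psmc5*, the ATPase RPT6, had 142, 135 and 105 CPM in Cryaa-WT and 117, 48.0 and 57.9 CPM in homo libraries. The log2 fold change of -0.78 (SE 0.26) did not pass (FDR 0.0628). *Psmc4*, the ATPase RPT3, had 141, 129 and 106 CPM in WT and 136, 44.8 and 48.9 CPM in homo libraries (log2 fold change -0.70, SE 0.30, FDR 0.146). For both, homo replicate 1 lay within the WT range and the other homo libraries lay below it. *Psmd1*, the large base subunit RPN2, was higher in all homo libraries, with 41.3, 54.9 and 63.0 CPM in WT and 113, 107 and 70.8 CPM in homo libraries, and fell just outside the threshold (log2 fold change 0.86, SE 0.28, FDR 0.0535). *Psmd1* shares exon bases with *Htr2b* and *Gm21972*. *Psmd10*, which encodes gankyrin, an assembly chaperone of the ATPase ring, had 17.7, 16.1 and 12.8 CPM in WT and 15.5, 7.17 and 6.46 CPM in homo libraries (log2 fold change -0.67, SE 0.27, FDR 0.119). *Psmd5*, another assembly chaperone, had 13.04, 10.5 and 10.1 CPM in WT and 25.2, 5.72 and 5.17 CPM in homo libraries, on both sides of the WT range, and the log2 fold change was 0.11 (SE 0.40, FDR 0.902).

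Leaving out single homo libraries changed the count and the direction of the calls. Without homo replicate 1, 19 of 36 proteasome genes passed against WT, with *Psma4* and *Psmb3* higher and 17 lower, where 3092 of 14398 genes passed (21.5%). The largest falls were in *Psmc4* (log2 fold change -1.42, FDR 1.2e-05), *Psmb5* (-1.41, FDR 5.38e-05) and *Psmc5* (-1.27, FDR 7.42e-05). With homo replicate 1 as the only homo library, 16 genes passed, all higher, where 11.7% of all genes passed. In this fit the lone library is assumed to vary like the other groups. *Psma5*, *Psmb1*, *Psmc2*, *Psmd8*, *Psmd14* and *Psmd5* passed in both fits in opposite directions, as in *Psmd5* with log2 fold changes of -1.04 and 1.19. With the Gm42418 share as a covariate the median was -0.24 and 11 genes passed, 4 higher (*Psma4*, *Psmb3*, *Psmd1* and *Psmd2*) and 7 lower (*Psma1*, *Psmb5*, *Psmb7*, *Psmc3*, *Psmc4*, *Psmc5* and *Psmd10*), where 18% of all genes passed.

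**Figure D3:**
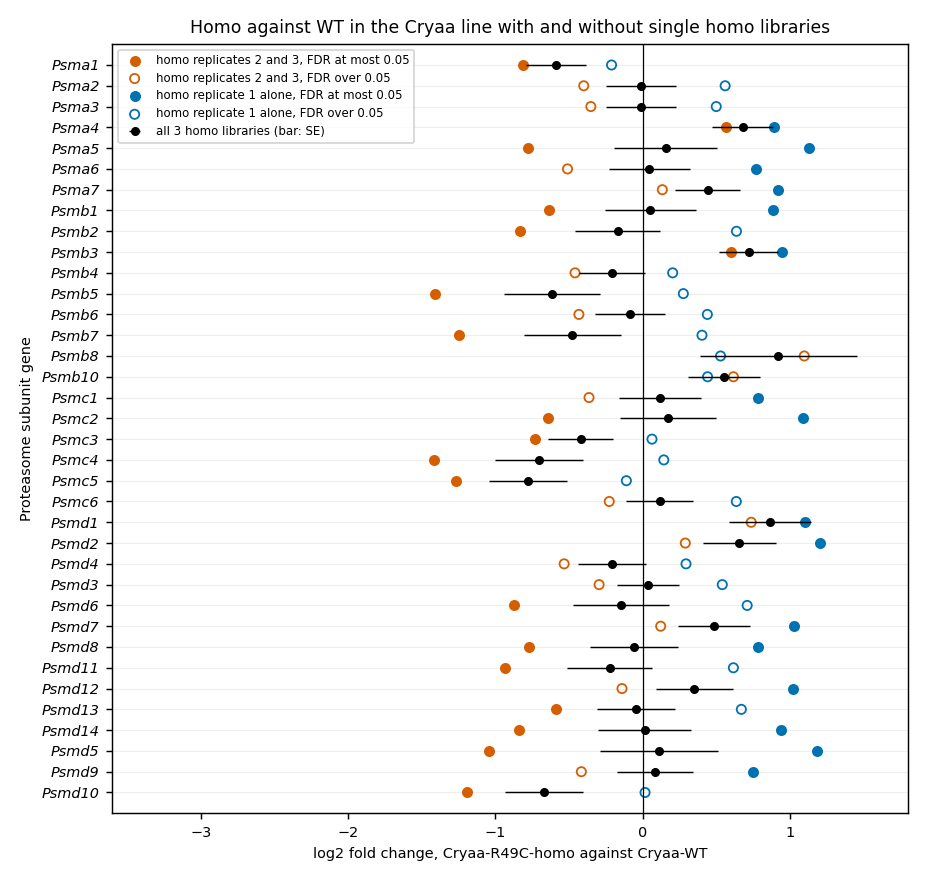
log2 fold change of each tested proteasome gene in *Cryaa*-R49C-homo against Cryaa-WT lenses, with all 3 homo libraries (black, bar SE), with homo replicates 2 and 3 (orange) and with homo replicate 1 alone (blue), filled where the FDR was at most 0.05. The orange and blue points lie on opposite sides of 0 for most genes, and 19 and 16 genes passed in the respective fits.

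Against *Cryaa*-R49C-het lenses, 3 of 36 genes were lower in homo lenses, where 8.32% of all genes passed and 3.63% passed as lower. *Psma1* had 44.5, 46.7 and 47.9 CPM in het libraries and fell by 0.75 on the log2 scale in homo lenses (SE 0.20, edgeR FDR 0.0242). *Psmc5* had 125, 163 and 121 CPM in het libraries and fell by 0.88 (SE 0.26, FDR 0.0404), and *Psmd10* had 17.6, 20.1 and 17.998 CPM and fell by 0.93 (SE 0.27, FDR 0.0332). For these 3 genes all homo libraries lay below all het libraries, against 10.5% of all genes. The median over the 36 genes was -0.22. None of the 3 was kept when any 1 het library or homo replicate 2 or 3 was left out, with library size alone or with only the groups compared. *Psma1* was not kept when every gene with a count was tested, and *Psmc5* was not kept without Gm42418 and crystallin genes. Without homo replicate 1 the count was 25, all lower, where 28.7% of all genes passed. With homo replicate 1 as the only homo library, 3 genes (*Psma5*, *Psmc2* and *Psmd5*) passed as higher than in het lenses, where 2.61% of all genes passed, and the median was 0.49. With the Gm42418 covariate 4 genes passed, all lower, where 8.53% of all genes passed, and the median was -0.07.

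Between *Cryaa*-R49C-het and Cryaa-WT lenses no proteasome gene passed the test, although nearly all fold changes pointed up. The log2 fold change was above 0 in 35 of 36 genes with a median of 0.24, against -0.01 for all genes, and in 14 genes all het libraries lay above all WT libraries, against 9.57% of all genes. By edgeR 0 of 36 genes passed, where 0.00717% of all genes passed. An unadjusted p under 0.05 was found in 2 (*Psmb10* and *Psmd1*), against 5.09% of all genes. DESeq2, the edgeR likelihood-ratio test and limma voom also called 0, where they called 0.0143%, 0.108% and 2.22% of all genes. *Psmd1* had 73.5, 93.4 and 72.3 CPM in het libraries, all above the WT libraries. The het libraries also held less Gm42418 than every WT library (11.9% to 17.97% against 20.01% to 30.1%). With the Gm42418 share as a covariate the median was -0.16. Because the 2 groups do not overlap in Gm42418, genotype and Gm42418 share cannot be told apart here.

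The immunoproteasome genes were expressed at low levels and did not share the pattern of the constitutive genes. *Psmb8* had 7, 12 and 14 counts in Cryaa-WT, 9, 8 and 20 in *Cryaa*-R49C-het and 26, 33 and 18 in *Cryaa*-R49C-homo libraries. Homo libraries had the highest CPM (0.573, 1.04 and 0.684 against 0.298, 0.405 and 0.491 in WT) and did not overlap with WT, but the log2 fold change of 0.92 (SE 0.53) did not pass (FDR 0.309). *Psmb8* met the count filter only through these homo libraries, where it is high, so the lack of overlap is not independent of the filter. *Psmb8* shares exon bases with the antisense gene *Gm20496*. *Psmb9* shares exon bases with *Tap1* on the opposite strand, and reads of the pair may not be told apart. It had 2 counts in each Cryaa-WT library, 2, 3 and 6 in het and 5, 9 and 6 in homo libraries. Summed over each group, homo had 20 counts and WT had 6, a ratio of 2.63 after scaling, with a 95% interval of 1.02 to 8 that covers counting error only. *Psmb10* had 3.07, 1.93 and 2.28 CPM in Cryaa-WT and 3.24, 3.62 and 3.802 CPM in homo libraries, all higher. The log2 fold change was 0.55 (SE 0.25), which did not pass (FDR 0.163).

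Homo replicate 1, the highest of the homo libraries for every constitutive gene, was the lowest of them for *Psmb8* and *Psmb10*. Per kilobase, *Psmb10* reached 11.1%, 6.76% and 10.9% of the level of *Psmb7*, which it replaces, in Cryaa-WT libraries and 9.66%, 29.1% and 41.6% in homo replicates 1, 2 and 3. The level of *Psmb8* was 0.256%, 0.346% and 0.590% of that of *Psmb5* in WT and 0.453%, 2.21% and 2.10% in homo libraries. Homo replicates 2 and 3 were high in both ratios and replicate 1 lay within the WT range. Within the homo group the denominators differed more than the numerators. *Psmb7* went from 32.0 CPM in replicate 1 to 8.75 CPM in replicate 3, and *Psmb10* from 3.24 to 3.802 CPM. *Psmb5* went from 40.3 to 10.4 CPM, while *Psmb8* lay between 0.573 and 1.04 CPM. A replacement of subunits was not tested. Markers of macrophages and microglia, which express these genes, summed to 8.98 to 22.0 CPM in Cryaa-WT and 21.3 to 44.0 CPM in homo libraries. Of these markers 2 of 11 passed as higher, where 4.87% of all genes did, and none of the 11 was at 0 in every library. Vessel markers summed to 25.7 to 42.2 CPM in WT and 26.8 to 85.5 CPM in homo libraries. Lens fibre markers summed to 131320 to 194040 CPM in WT and 50997 to 160970 CPM in homo libraries. Of these, 4 of 9 tested markers passed as lower, where 9.79% of all genes passed in either direction. The part of these cell types in the immunoproteasome and constitutive levels was not tested.

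**Figure D4:**
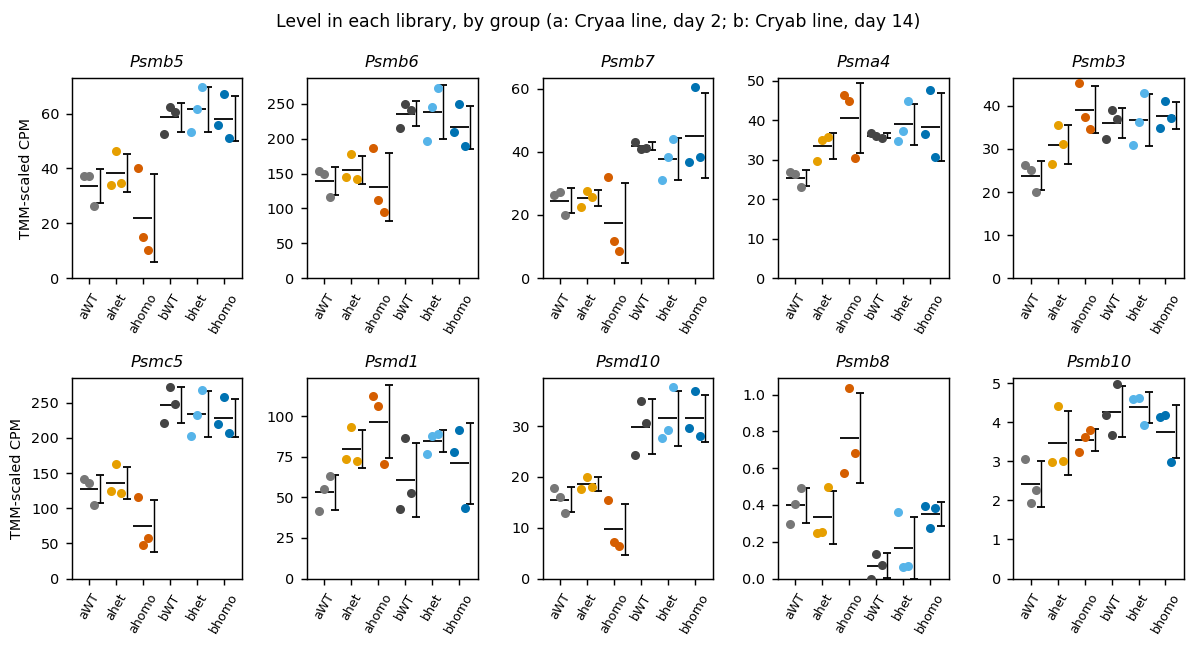
TMM-scaled CPM of 10 proteasome genes in each of the 18 libraries by group, with a point for each library in the order of replicates 1, 2 and 3, a line at the mean and a bar for the SD (n = 3). In the *Cryaa*-R49C-homo group replicate 1 is above replicates 2 and 3 in *Psmb5* (40.3 against 14.9 and 10.4 CPM) and below them in *Psmb8* and *Psmb10*.

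In the *Cryab* line no proteasome gene passed the test. In *Cryab*-R120G-homo against Cryab-WT lenses edgeR called 0 of 36, where 0.0502% of all genes passed. An unadjusted p under 0.05 was found in 1 gene (*Psmb8*), against 6.1% of all genes. DESeq2, the likelihood-ratio test and limma voom called 0, where they called 0.143%, 1.84% and 0.273% of all genes. The median log2 fold change was 0.03 (-0.11 with the Gm42418 covariate), within a range of -0.24 to 0.23 for the constitutive genes. *Psmb5* had 52.7, 62.6 and 60.6 CPM in Cryab-WT and 56.02, 67.2 and 51.2 CPM in homo libraries, and *Psmc5* had 221, 273 and 248 against 219, 259 and 207 CPM. The groups overlapped in both genes. Homo libraries all lay above WT libraries in 1 gene (*Psmb8*; 4.51% of all genes did) and below them in 2 (*Psmb4* and *Psmd14*; 4.5% of all genes did). *Psmb8* had 0, 2 and 1 counts in WT and 6, 5 and 5 in homo libraries, a ratio of 4.3 with a 95% counting interval of 1.23 to 23, and its adjusted p by edgeR was 0.74. *Psmb9* had 0 counts in the Cryab-WT and homo libraries, which allows up to 0.0799 and 0.0645 CPM over the respective groups. For *Cryab*-R120G-het against WT and for homo against het, edgeR called 0 of 36 (0.00717% and 0% of all genes passed). An unadjusted p under 0.05 was found in 0 genes, against 3.82% and 1.97% of all genes. The other 3 tools called 0, where they called at most 0.33% and 0.0143% of all genes.

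The homo effect in the *Cryaa* line was compared directly with that in the *Cryab* line. Of the 36 genes, 0 passed by edgeR, where 2.91% of all genes passed. An unadjusted p under 0.05 was found in 3 (*Psma1*, *Psmb3* and *Psmb10*), against 15.4% of all genes. DESeq2 called 0 (4.49% of all genes), the likelihood-ratio test 6 (10.4% of all genes) and limma voom 11 (15.7% of all genes). The Gm42418 covariate also gave 0 genes, where 5.8% of all genes passed. *Psmb3* had the strongest difference upward among constitutive genes, with a log2 difference of 0.65 (SE 0.28, FDR 0.254). Without *Cryaa*-R49C-homo replicate 1, 12 genes passed, all with the lower fold change in the *Cryaa* line, where 12.5% of all genes passed.

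In Cryab-WT lenses at 14 days against Cryaa-WT lenses at 2 days, 6 of 34 constitutive proteasome genes passed, all higher after TMM scaling. The log2 fold change was above 0 in all 34, 28 of 36 genes had all day 14 libraries above all day 2 libraries (20.2% of all genes did), and the median over the 36 genes was 0.55, against -0.07 for all genes. With the Gm42418 share as a covariate this median was 0.33, and the 7 genes named below passed as higher, where 26.2% of all genes passed. By edgeR 7 genes passed as higher and 1 as lower, where 11.7% and 11.5% of all genes passed in these directions and 23.2% in either. *Psmb4*, the beta ring subunit β7, had 66.8, 65.0 and 49.2 CPM at day 2 and 116, 130 and 112 CPM at day 14, without overlap (log2 fold change 0.98, SE 0.23, FDR 0.00324). *Psmc5* had 142, 135 and 105 CPM at day 2 and 221, 273 and 248 CPM at day 14 (log2 fold change 0.96, SE 0.26, FDR 0.0113). *Psmd10* had 17.7, 16.1 and 12.8 against 24.2, 34.96 and 30.6 CPM (log2 fold change 0.95, SE 0.27, FDR 0.0133). The day 14 libraries were the higher ones in each of these genes. The other genes that passed as higher were *Psmb10* (0.82), *Psmb6* (0.76), *Psmc3* (0.74) and *Psmb3* (0.60), with FDR between 0.0198 and 0.0322. When every gene with a count was tested these 4 were not called, and *Psmb1*, *Psmb5*, *Psmb7* and *Psmd6* passed in their place. By class, the median log2 fold change was 0.77 for the beta ring, 0.69 for the chaperone-like genes, 0.67 for the ATPases, 0.47 for the alpha ring, 0.40 for the lid and 0.19 for the non-ATPase base.

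*Psmb8* moved against the other genes, with 33 counts in the 3 day 2 libraries and 3 in the 3 day 14 libraries, a ratio of 0.198 after scaling with a 95% counting interval of 0.0388 to 0.63 (FDR 0.0431). *Psmb8* was not called without any 1 of the 6 libraries, by DESeq2 or limma voom, with every gene with a count, with the replicate block or with the Gm42418 covariate, and it was too low to be tested with only the groups compared. Macrophage and microglia markers were also lower at day 14, with sums of 0.667 to 3.41 CPM against 8.98 to 22.0 CPM. Of these markers 11 of 11 passed, where 11.5% of all genes passed as lower. Lens fibre markers were higher, with 6 of 9 tested markers passing, where 11.7% of all genes passed as higher. The fibre marker *Lim2* had 0 counts in both WT groups and was not tested. The part of these cell types in the day 14 differences was not tested. Without Cryaa-WT replicate 3 only *Psmb4* passed (12.4% of all genes), without Cryaa-WT replicate 2 the count was 4 (18.4% of all genes), and without either Cryab-WT replicate 2 or 3 it was 3 (15.4% and 15% of all genes). The direction depends on the scaling: with library size alone the median of the 36 genes was -0.99 and that of all genes was -1.61, so the proteasome genes lay above the shifted median of all genes under both scalings.

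**Figure D5:**
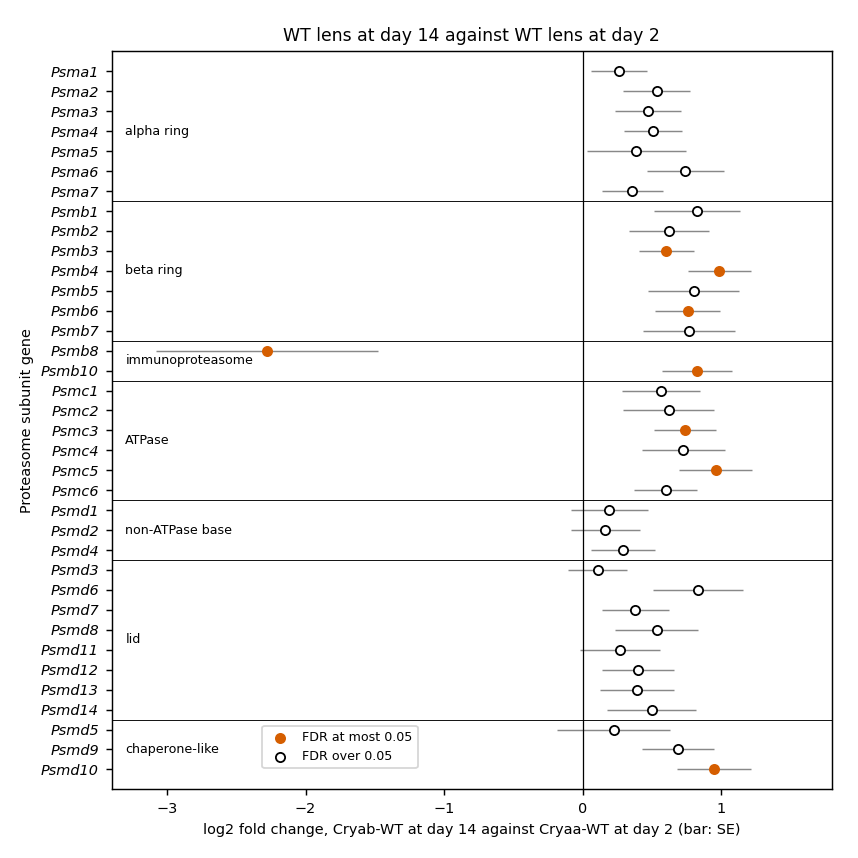
log2 fold change (x axis, bar SE) of the 36 tested proteasome genes in Cryab-WT lenses at day 14 against Cryaa-WT lenses at day 2, by class, filled orange where the FDR was at most 0.05. All 34 constitutive genes lie above 0, with a class median of 0.77 for the beta ring and 0.19 for the non-ATPase base, while *Psmb8* lies at -2.28; with library size as the only scaling, the 7 genes called higher lie below 0.

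Genes that act with the proteasome were examined as lists. In *Cryaa*-R49C-homo against Cryaa-WT lenses, 0 of 5 assembly factors, 0 of 5 activators and inhibitors and 0 of 7 associated proteins passed, 1 of 7 regulators of proteasome genes was higher and 1 of 8 antigen presentation genes was lower, where 9.79% of all genes passed and 4.87% passed as higher. The median log2 fold changes of these 5 lists lay between 0.01 and 0.36. The regulator was *Nfe2l1*, which encodes NRF1, the transcription factor that raises proteasome gene expression when proteasome activity is low. It had 15.6, 14.8 and 10.7 CPM in WT and 16.3, 41.4 and 33.2 CPM in homo replicates 1, 2 and 3 (log2 fold change 1.15, SE 0.27, FDR 0.00795). The rise was carried by homo replicates 2 and 3, the libraries in which most constitutive genes were low, and with homo replicate 1 as the only homo library it was 0.27 on the log2 scale and did not pass. *Nfe2l1* was also not called without homo replicate 2, without WT replicate 3 or with only the groups compared. Proteasome activity was not measured, and a link between *Nfe2l1* and the proteasome genes was not tested.

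*Vcp*, the segregase that pulls ubiquitinated proteins from membranes and complexes, had 17.2, 18.7 and 14.0 CPM in WT and 27.9, 66.2 and 45.3 CPM in homo libraries, all higher (log2 fold change 1.48, SE 0.25, FDR 0.000328). *Nlrc5*, an activator of MHC class I genes, had 14.3, 16.04 and 6.48 CPM in WT and 0.727, 2.64 and 2.36 CPM in homo libraries (log2 fold change -2.71, SE 0.38, FDR 6.85e-05). Both genes passed in the same direction under each of 18 alternative settings, and their homo libraries did not overlap with WT. *Nfe2l1*, *Vcp* and *Nlrc5* also differed between the lines in the homo effect, with log2 differences of 1.54, 1.56 and -2.37 and FDR between 0.0117 and 0.0292. Of these differences, that of *Nfe2l1* was lost in several fits without 1 library, while that of *Nlrc5* passed in all 23 alternatives. In *Cryab*-R120G-homo lenses 0 genes of these 5 lists and 0 of the shuttle and segregase list, which holds *Vcp*, passed.

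In WT lenses at day 14 against day 2, 3 of 5 assembly factors, 1 of 5 activators and inhibitors and 2 of 7 associated proteins were higher, where 11.7% of all genes passed as higher. Of 7 regulators 2 were higher (*Maff*, log2 fold change 3.27, and *Mafk*, 1.48) and 1 was lower (*Nfe2l2*, which encodes NRF2, -0.68), and the antigen presentation gene *B2m* was lower (-1.09), where 11.5% of all genes passed as lower. Each of these 4 calls was lost without some single libraries, and *Maff* and *Mafk* did not pass with library size alone, where *Mafk* lay below 0. *Maff* passed in 7 of 17 alternatives, with log2 fold changes from -0.68 to 3.86. *Pomp*, which encodes the maturation factor of the core, had 119, 111 and 85.5 CPM at day 2 and 185, 231 and 259 CPM at day 14 (log2 fold change 1.10, SE 0.22, FDR 0.00094). *Psmg1* (0.95) and *Psmg4* (0.66), chaperones of alpha ring assembly, were the others. The activator *Psme3* was higher by 0.81, and the lid subunit *Shfm1* by 0.88 and the associated thioredoxin *Txnl1* by 0.66 on the log2 scale. Among the ubiquitin genes, *Ubb* had 335, 299 and 224 CPM at day 2 and 859, 649 and 640 CPM at day 14 (log2 fold change 1.32, SE 0.26, FDR 0.00096). *Txnl1* was not called without any 1 of the 6 libraries, *Psmg1* without 5 of them, *Psmg4* without 4 and *Shfm1* without 3. With library size alone the log2 fold changes of *Pomp*, *Psmg1*, *Psmg4*, *Psme3*, *Shfm1*, *Txnl1* and *Ubb* were below 0, as was the median of all genes (-1.61).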

How the data were processed

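RNA of pooled lenses was made into cDNA with a Clontech poly-A priming kit and sequenced as single reads. The authors aligned the reads with STAR 2.0.4b to GRCm38 (after CASAVA 1.8) and counted them per Ensembl gene with featureCounts 1.4.5 (strand setting not given in the sources used here). The deposited values used are read counts per gene without normalization. From the deposited RPKM values only the gene length was derived. The deposited CPM and moderated log2 tables were not used. Repeated lines of the 41422-line table were reduced to 40800 identifiers.

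Counts were tested with the quasi-likelihood test of edgeR 4.0.16 (R 4.3.3) in 1 model of 6 groups and 18 libraries, with TMM scaling and 13938 genes kept by filterByExpr. The study kept every gene with a count, which is an alternative here. FDR is a Benjamini-Hochberg value over all genes tested, and the threshold was 0.05. DESeq2 1.42.0 and limma 3.58.1 were alternatives. The test was checked on simulated data. The labels give no pairing of libraries between groups. In *Cryab*-R120G-homo against Cryab-WT, same-number deviations correlated with r of 0.29, 0.23 and 0.18, each over 0.1. In no other comparison were all same-number values over 0.1. Deviations within a group cancel out, so these values are not independent of each other and do not show a pairing. Groups were read from the sample titles, because 6 *Cryab* libraries carry the *Cryaa* allele in their genotype field.

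The proteasome genes and the lists were chosen with earlier results of these data known. Some genes of the ubiquitin, shuttle and antigen presentation lists are not reported here, and the list counts that rest on them are left out. Named genes were the catalytic and immunoproteasome subunits, in each class the 3 genes with the smallest and the 1 with the largest p in *Cryaa*-R49C-homo against WT, those past the threshold, and the highest and lowest per kilobase; the text gives part of these, and the gene-length and promoter tables came from GENCODE vM21 and RefSeq. Library totals were 14272174 to 29639719 counts. *Psmb8* and *Psmb9* had few counts, and the intervals given for them cover counting error only.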

Additional observations from a re-analysis of the deposited data

How the results depend on the processing

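The number of proteasome genes past the threshold depended on the model in the *Cryaa* line. For homo against WT (2 genes) it was 7 with library size alone (15.3% of all genes), 1 with every gene with a count (5.64%), 5 with DESeq2 (2 of them lower; 12.1%), 14 with the likelihood-ratio test (11 lower; 20.7%), 25 with limma voom with quality weights (21 lower; 29.1%), 0 with only the groups compared (3.7%), 4 with the replicate block (10.3%), 11 with the Gm42418 covariate, 16 without homo replicates 2 and 3 together, and 0 to 19 when 1 library was left out. The Gm42418 covariate and the fit without homo replicates 2 and 3 together were chosen after seeing the data. For homo against het (3 genes) it was 0 with library size alone (7.31% of all genes), 15 with the likelihood-ratio test (14 lower; 21.9% of all genes), 25 with limma voom (24 lower; 33.7%), 0 with only the groups compared (2.2%), 5 with the replicate block (9.18%), and 0 to 25 with 1 library left out. For the difference between the lines (0 genes) it was 6 with the likelihood-ratio test (10.4% of all genes), 11 with limma voom (15.7%), and 0 to 12 with 1 library left out. For day 14 against day 2 in WT (8 genes) it was 29 with library size alone, all lower, where 83.2% of all genes passed, 20 with the likelihood-ratio test (32.9% of all genes), 24 with limma voom (33.8%), 23 with only the groups compared (28.7%), and 1 to 7 with 1 library left out. The counts for het against WT and for the 3 *Cryab* comparisons were 0 under every setting run. A block for replicate number left the count of 0 in *Cryab*-R120G-homo against Cryab-WT. In all comparisons the libraries are known to share only a number.

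Among genes past the threshold in at least 1 of the fits compared, log2 fold changes turned sign, for homo against WT, with the likelihood-ratio test in *Psmd14* (-0.63) and *Psmd5* (-0.81), with limma voom in *Psma5* (-0.74), *Psma6* (-0.49), *Psmb1* (-0.62), *Psmc2* (-0.60), *Psmd14* (-0.78) and *Psmd5* (-0.95), without homo replicate 1 in *Psma5* (-0.78), *Psmb1* (-0.64), *Psmc2* (-0.64), *Psmd14* (-0.84) and *Psmd5* (-1.04), whose highest values with 1 library left out were 0.53, 0.37, 0.49, 0.35 and 0.47, and without homo replicates 2 and 3 in *Psmd8* (0.79). With library size alone, day 14 against day 2 turned in all 7 genes called higher, *Psmb3* (-0.92), *Psmb4* (-0.53), *Psmb6* (-0.76), *Psmb10* (-0.73), *Psmc3* (-0.80), *Psmc5* (-0.56) and *Psmd10* (-0.57). Where homo replicates were left out, the change follows from the libraries left; otherwise the cause was not tested. With 3 libraries a group, exact permutation of 3 against 3 cannot go below p = 0.1.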
